A study of Mus musculus with 9 samples.

Results

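The chemokines and cytokines that fibroblasts secrete were followed in mouse NIH 3T3 cells. Members were 10 of the 18193 genes that the array measures with a probe set of 1 symbol: the CC chemokines Ccl2, Ccl7 and Ccl5, the CXC chemokines Cxcl1, Cxcl5, Cxcl10 and Cxcl12, the cytokines Il6 and Lif, and the growth factor Csf1. Every probe set that the array's annotation maps to 1 of these symbols and to no other was taken, which gave 18 of the 45101 probe sets on the array. No probe set that carries several symbols includes a member. Of the 18 probe sets, 13 passed the filter on low values and were tested among 27010, and they stand for 8 of the 10 genes. Counts over these members are descriptions.

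NIH 3T3 is an established line of embryonic mouse fibroblasts, and RNA of 9 cultures was hybridised to Affymetrix arrays, 3 per group. The cytochalasin D group received that drug at 2 µM for 90 min. The second group received latrunculin B at 5 µM and cytochalasin D at 2 µM for 90 min by its agent label, whereas its titles name latrunculin B alone. It is called the double-drug group here. The control group received neither drug. All cells had been starved of serum, and all 3 groups, controls included, were given cycloheximide at 3 µg/ml for 2 h. Actin is the target of both drugs. Cytochalasin D binds filament ends and also releases the coactivator MRTF from monomeric actin, whereas latrunculin B binds the monomer and leaves MRTF on it. The labels number the cultures of each group 1, 3 and 7, and the series design calls them independent.

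Chemokines are small secreted proteins that draw leukocytes along a gradient. In fibroblasts many of their genes are switched on by NF-kappaB, and their mRNAs are short-lived because proteins such as tristetraprolin (Zfp36) bind AU-rich elements in them and promote decay. Cycloheximide blocks translation. No array lacked it, so its own effect on these transcripts cannot be told apart from their level in starved cells.

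The cells carried the markers of their label. All 11 fibroblast markers lay above the 60th percentile of their array on all 9 arrays, whereas 0 of 8 endothelial and 1 of 9 epithelial markers (Krt14) did. Of 13 macrophage and leukocyte markers 3 did so (Csf1r, Cd14 and Lyz2), while Ptprc, the pan-leukocyte marker CD45, lay between 4.37 and 5.27. The summed intensity of these 13 ran from 311 to 412 with cytochalasin D, from 361 to 418 in the double-drug group and from 399 to 471 in controls, and the part of this in the results below was not tested. Median intensities of the arrays lay between 7.57 and 7.84.

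The first question was which members were expressed under cycloheximide. A probe set was counted as expressed in a group if it exceeded the 60th percentile of intensity, which was 16.1 to 17.5 depending on the array, on all 3 arrays of the group. By this measure 13 of the 18 probe sets, for 8 genes, were expressed in each of the 3 groups: Ccl2, Ccl7, Cxcl1, Cxcl5, Cxcl10, Cxcl12, Il6 and Csf1. Ccl5, a chemokine for T cells and monocytes, lay between 4.44 and 4.97 over the 9 arrays. Both probe sets of Lif, a cytokine of the interleukin 6 family, lay between 4.53 and 5.37. Cxcl12, the ligand of Cxcr4, was expressed by 1 of its 3 probe sets, with intensities from 30.4 to 65.8, whereas its others lay between 4.91 and 5.12. In the expressed probe set the same value, 55.8359, stood for double-drug culture 1 and control culture 3. Whether its intensities were signal or background was not tested. Cxcl10 was close to the limit, at 18.4 to 36.9. With the 75th percentile as the limit, between 152 and 162, the probe sets expressed were 8 with cytochalasin D, 7 in the double-drug group and 9 in controls, and those of Cxcl10, Cxcl12 and Il6 were in none of them.

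**Figure D1:**
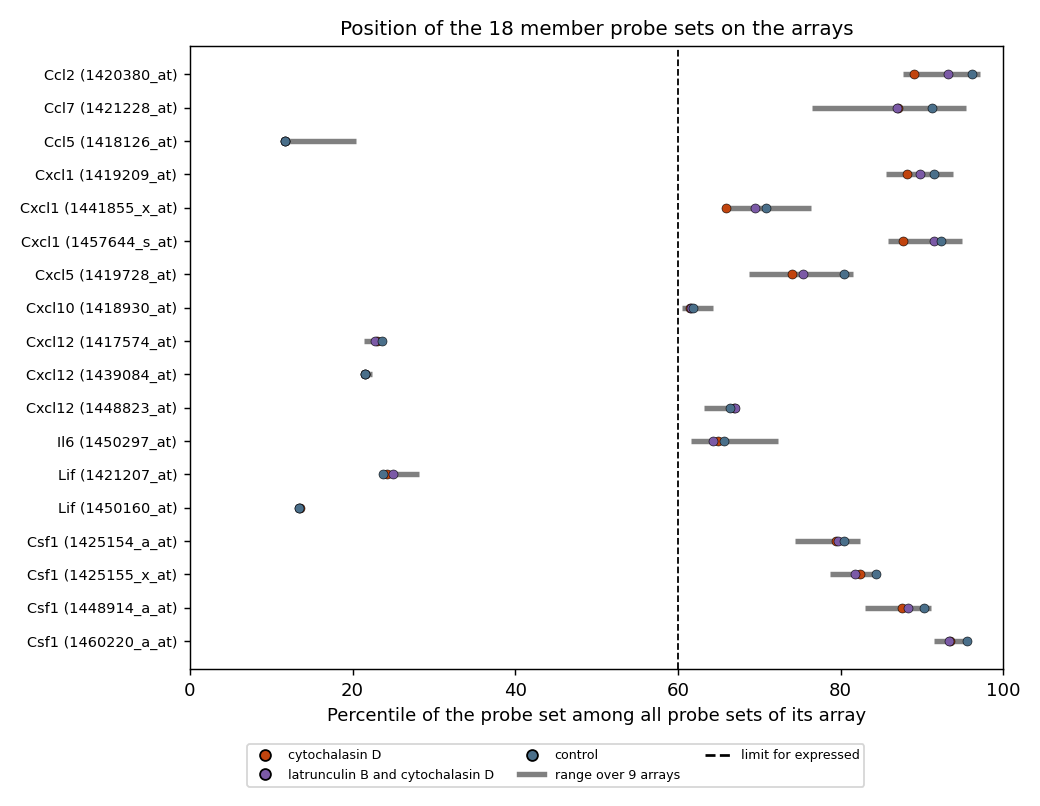
Percentile of each of the 18 member probe sets among all probe sets of its array. Points are group medians over 3 arrays, grey lines span the 9 arrays and the dashed line marks the 60th percentile. The probe sets of Ccl5 and Lif and 2 of 3 for Cxcl12 lie far below the line, and Cxcl10 lies just above it.

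Cytochalasin D was compared with control first. The clearest change was in Ccl2, also called MCP-1, which attracts monocytes through the receptor Ccr2. Its intensity was 606, 880 and 688 in cytochalasin D cultures 1, 3 and 7, 996, 1431 and 1255 in double-drug cultures, and 2383, 2174 and 3044 in controls. The 3 groups did not overlap, and in each culture number cytochalasin D was lowest and control highest. Means were 725 ± 141 with cytochalasin D, 1227 ± 219 in the double-drug group and 2534 ± 454 in controls (SD, n = 3 each), so that cytochalasin D left 0.286 of the control mean.

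With cytochalasin D, Ccl2 fell by 1.79 on the log2 scale (SE 0.20, limma adjusted p = 0.00862). It stayed called with any single array left out (adjusted p between 0.0152 and 0.0375), but not in a fit on the 6 arrays compared (adjusted p = 0.0534). The share of cells that carry a transcript and its amount per cell cannot be told apart in such bulk samples, here or for any other transcript. Ccl2 was the 1 member probe set called among 13 in this comparison, where 1.57% of all tested probe sets were called and 0.422% were called lower.

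Ccl7 (MCP-3) is a close relative of Ccl2 that acts on the same receptor, and it is the next protein-coding gene beside Ccl2 in the mouse assembly GRCm38.p6. Its intensity was 566, 589 and 180 in cytochalasin D cultures 1, 3 and 7, 792, 541 and 370 in double-drug cultures, and 1981, 924 and 892 in controls. Every culture given a drug was below every control, and control 1 stood far above the other 2 controls. The log2 change with cytochalasin D was −1.54 (SE 0.55, adjusted p = 0.382), so Ccl7 was not called, and it was −1.17 without control culture 1 and −1.01 without cytochalasin D culture 7. The next 4 genes of this chemokine cluster, Ccl11, Ccl12, Ccl8 and Ccl1, had no intensity above 7.20 on any array.

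Cxcl1 (KC) and Cxcl5 (LIX) attract neutrophils through Cxcr2. Cxcl1 has 3 probe sets, of which the suffixes x and s mark 2 that may bind related transcripts as well. In the probe set without such a suffix Cxcl1 had 482, 628 and 737 in cytochalasin D cultures 1, 3 and 7, 762, 724 and 922 in double-drug cultures, and 907, 954 and 1365 in controls. Cytochalasin D values lay below all controls, and the double-drug group overlapped with controls. The log2 change with cytochalasin D was −0.79 (SE 0.21, adjusted p = 0.197), and the other probe sets gave −0.82 (SE 0.32, adjusted p = 0.442) and −0.86 (SE 0.35, adjusted p = 0.461), so none of the 3 passed in the main limma fit. With the replicate number as a block all 3 passed (adjusted p = 0.0242, 0.0367 and 0.0101), where 3.87% of all tested probe sets were called. In each of these 3 probe sets cytochalasin D was lower than control in all 3 culture numbers, with log2 differences from −1.05 to −0.51.

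Cxcl5 had 150, 138 and 86.7 in cytochalasin D cultures, 162, 162 and 76.4 in double-drug cultures, and 241, 312 and 266 in controls. The groups given a drug overlapped with each other and lay below all controls. The change with cytochalasin D was −1.06 (SE 0.30, adjusted p = 0.239) and did not pass. Cxcl5 and Cxcl1 lie in 1 cluster with Ppbp, Pf4, Cxcl3 and Cxcl15 between them and Cxcl2 next to Cxcl1. These 5 neighbours had no intensity above 9.85, Cxcl2 among them at 5.48 to 5.65, and were not expressed by the measure above.

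Promoter sequence was available for 6 members, from RefSeq on GRCm38.p6, covering 250 bases before and 50 after the start site. None was at hand for Ccl2, Ccl7, Ccl5 and Cxcl5, so whether these carry a match is not known here. The 6 promoters were searched on both strands for a form of the NF-kappaB motif (GGG, any 3 bases, then TTCC) and for TGANTCA, the AP-1 motif. The first was found in 4 of the 6 (Cxcl1, Cxcl10, Il6 and Csf1), against 5.56% of 32851 promoters, and the second in 3 (Cxcl10, Il6 and Lif), against 7.81%. Of the 4 with the first motif 3 are shown, each 5′ to 3′ along its gene, with matches in capitals. These are Cxcl1 at chr5:90890995-90891294 (plus strand), Cxcl10 at chr5:92348840-92349139 (minus strand) and Il6 at chr5:30012864-30013163 (plus strand).
Cxcl1: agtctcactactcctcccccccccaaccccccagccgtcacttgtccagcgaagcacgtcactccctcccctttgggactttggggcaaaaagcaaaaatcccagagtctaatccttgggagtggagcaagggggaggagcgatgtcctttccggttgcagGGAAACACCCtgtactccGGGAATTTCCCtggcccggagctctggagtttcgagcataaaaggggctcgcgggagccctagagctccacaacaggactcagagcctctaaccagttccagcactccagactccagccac
Cxcl10: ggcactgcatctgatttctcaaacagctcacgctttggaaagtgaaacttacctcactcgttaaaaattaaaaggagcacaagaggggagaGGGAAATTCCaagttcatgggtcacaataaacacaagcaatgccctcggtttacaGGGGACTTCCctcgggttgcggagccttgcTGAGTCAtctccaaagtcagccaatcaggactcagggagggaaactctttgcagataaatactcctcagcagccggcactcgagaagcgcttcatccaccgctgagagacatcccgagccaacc
Il6: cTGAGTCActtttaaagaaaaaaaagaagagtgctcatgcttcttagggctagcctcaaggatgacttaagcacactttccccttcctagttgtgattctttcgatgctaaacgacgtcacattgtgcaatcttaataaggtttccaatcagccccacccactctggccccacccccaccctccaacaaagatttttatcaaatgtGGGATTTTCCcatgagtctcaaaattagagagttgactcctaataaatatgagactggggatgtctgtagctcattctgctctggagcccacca
In Cxcl1 the matches begin at −89, −71 and −70 from the start site, and the last 2 overlap on opposite strands. In Cxcl10 the AP-1 match begins 74 bases before the start, after 2 of the first motif, and in Il6 the first motif begins 44 bases before it. A match is a description of the letters and not a measured site, and the log2 change with cytochalasin D in these 3 genes was −0.79 for Cxcl1, −0.24 for Cxcl10 and −0.19 for Il6. In Csf1, whose sequence is not shown, the match begins at −154, and the change of its brightest probe set was −0.49.

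Cxcl10 (IP-10), a chemokine induced by interferons that acts on Cxcr3, had 18.4, 22.2 and 22.1 in cytochalasin D cultures, 20.8, 22.1 and 25.0 in double-drug cultures, and 22.3, 24.9 and 36.9 in controls. The cytochalasin D values lay just below the lowest control, and the change was −0.24 (SE 0.12, adjusted p = 0.609). The added 16 makes changes at such intensities smaller. The expressed probe set of Cxcl12, a constitutive chemokine of stromal cells, had 65.8, 56.1 and 30.4 with cytochalasin D, 55.8, 57.1 and 54.4 in the double-drug group, and 59.4, 55.8 and 49.5 in controls. The groups overlapped, with a change of −0.13 (SE 0.20, adjusted p near 1) that turned to 0.12 without cytochalasin D culture 7. All 3 cultures numbered 7 were below the other 6 in this probe set.

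Il6, an inflammatory cytokine that signals through gp130, was set apart by culture number. Intensities were 42.9, 40.6 and 86.8 in cytochalasin D cultures 1, 3 and 7, 21.2, 36.4 and 87.0 in double-drug cultures, and 46.9, 45.9 and 114 in controls. All 3 cultures numbered 7 were above the other 6, whatever the drug. The change with cytochalasin D was −0.19 (SE 0.48) and turned to 0.17 without control culture 7. Leaving that array out removes the bright culture 7 from the controls only. Within culture numbers 1, 3 and 7 the log2 differences were −0.09, −0.13 and −0.34. With the replicate number as a block the SE was 0.14, and Il6 was not called (limma adjusted p = 0.592).

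Csf1 encodes the macrophage colony-stimulating factor and has 4 probe sets. The brightest had 1286, 1438 and 1308 in cytochalasin D cultures, 1311, 1584 and 960 in double-drug cultures, and 2035, 2147 and 1556 in controls. Cytochalasin D values lay below all controls, and the change was −0.49 (SE 0.20, adjusted p = 0.456). The other probe sets gave −0.11, −0.13 and −0.38, with groups that overlapped, and none of the 4 passed. In those 3 probe sets all cultures numbered 7 were below the other 6, as for Cxcl12 and the reverse of Il6.

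**Figure D2:**
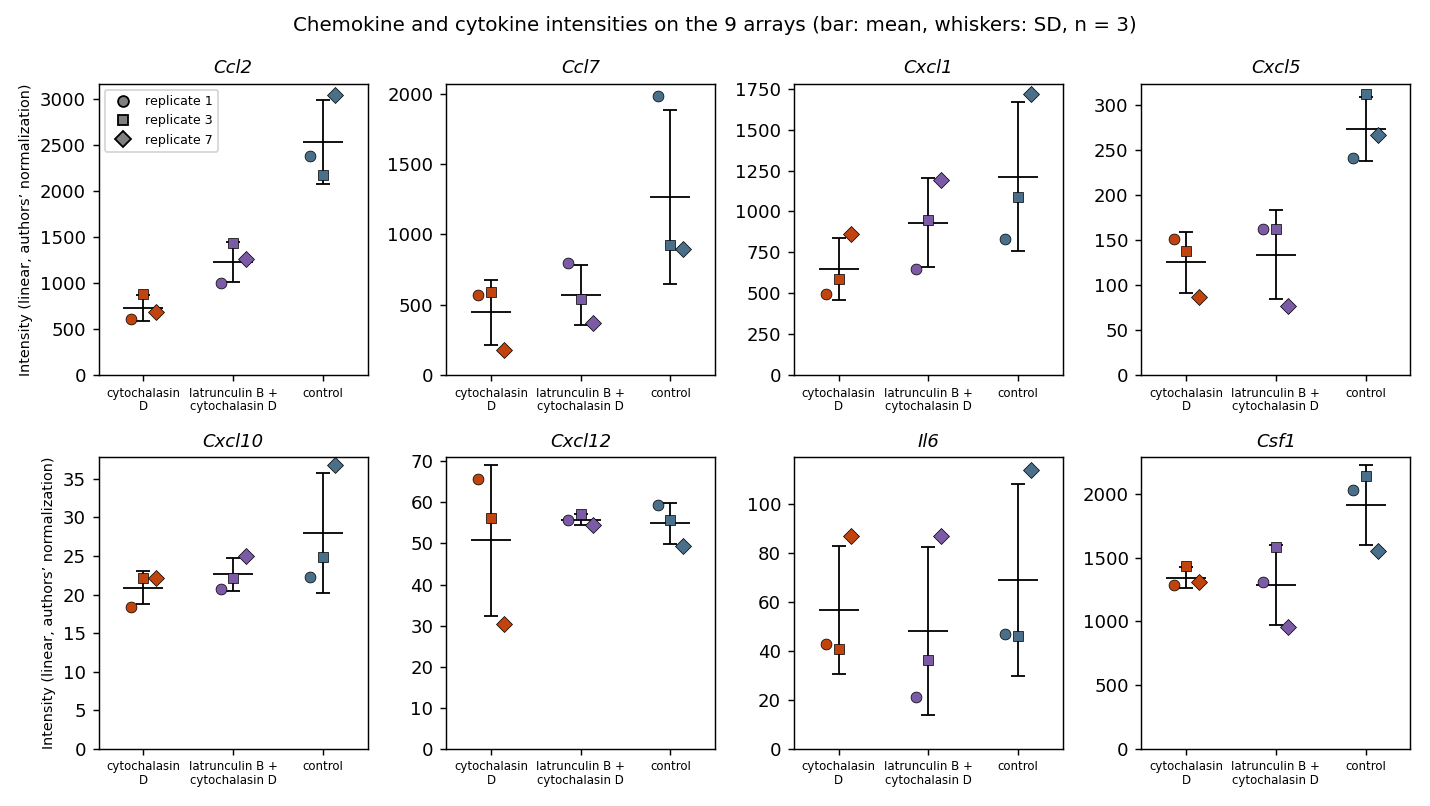
Intensity (linear scale, authors' normalization) of the brightest tested probe set of 8 members in cytochalasin D, double-drug and control cultures. Symbols mark the culture number, bars the mean and whiskers the SD of 3 arrays. The groups of Ccl2 are fully parted, at 606 to 880, 996 to 1431 and 2174 to 3044, while Il6 is parted by culture number 7.

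Across the 13 probe sets, all 13 log2 changes with cytochalasin D were below 0, against 54.4% of all probe sets tested. In 6 of them (Ccl2, Ccl7, Cxcl5, Cxcl10 and 1 each of Cxcl1 and Csf1) the cytochalasin D values lay below all control values, which held for 6.45% of all tested. At an unadjusted p under 0.05, 7 were lower, against 5.65% of all tested. The median change over the 8 genes, by their brightest probe set, was −0.68, beside −0.0045 over all genes tested. Probe sets of 1 gene share their transcripts, and groups share their cultures, so these are not independent observations.

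The second comparison set the double-drug group against the same controls. Here 0 of 13 member probe sets were called by limma, and 0.111% of all tested probe sets were (30, or 123 and 0.455% with the replicate number as a block). At an unadjusted p under 0.05 in the fit without the block, 3 were lower, against 2.61% of all tested. Ccl2 had the smallest p, with a log2 change of −1.04 (SE 0.20, unadjusted p = 0.00133, adjusted p = 0.197). Its double-drug mean was 0.484 of the control mean, and it was lower in all 3 culture numbers. Ccl7 had −1.10 (SE 0.55, adjusted p near 1) and Cxcl5 −1.01 (SE 0.30, adjusted p = 0.613). For these 3 genes the double-drug values lay below all control values, as they did for 3.99% of all tested probe sets. With the replicate block in limma, unadjusted p was 0.00205 for Ccl2, 0.0161 for Ccl7 and 0.00552 for Cxcl5. It was 0.00581 to 0.019 for Cxcl1, 0.0256 for Il6 and 0.00327 to 0.0758 for Csf1. For Cxcl10 and Cxcl12 it was 0.0842 and 0.907. After adjustment 0 of 13 passed with the block, and the share of all tested at this unadjusted limit is not given.

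The remaining members had smaller log2 changes in this comparison. The 3 probe sets of Cxcl1 had −0.36 to −0.41, Il6 −0.45, the brightest of Csf1 −0.58 (unadjusted p = 0.0215, adjusted p = 0.731), Cxcl10 −0.18 and Cxcl12 0.02. In all, 12 of 13 changes were below 0, against 43.9% of all tested, and the median over the 8 genes was −0.51.

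The third comparison asked what cytochalasin D alone did relative to the 2 drugs together. Again 0 of 13 member probe sets were called by limma, and 0.259% of all tested probe sets were, or 0.367% with the replicate block. At an unadjusted p under 0.05 in the fit without the block, 1 was lower, against 1.75% of all tested. It was Ccl2, with a log2 change of −0.75 (SE 0.20, unadjusted p = 0.00737, adjusted p = 0.546), and with differences from −0.85 to −0.69 in the 3 culture numbers. Ccl2 was also the 1 member whose groups did not overlap, as 3.33% of all tested did in this direction. Cxcl1 had −0.39, −0.41 and −0.51 in its 3 probe sets, with overlapping groups. With the replicate block in limma, unadjusted p was 0.00819 for Ccl2 and 0.00124 to 0.0199 for the probe sets of Cxcl1. Adjusted p with the block was 0.258 for Ccl2 and 0.116 to 0.367 for Cxcl1. All other members had a blocked unadjusted p of at least 0.129. Cxcl5, at −0.05 (SE 0.30), and the 4 probe sets of Csf1, at 0.06 to 0.11, had values close to 0. In all, 8 of 13 changes were below 0, against 62.6% of all tested. The cytochalasin D and double-drug contrasts share their controls, so their values are given side by side and no overlap is counted.

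**Figure D3:**
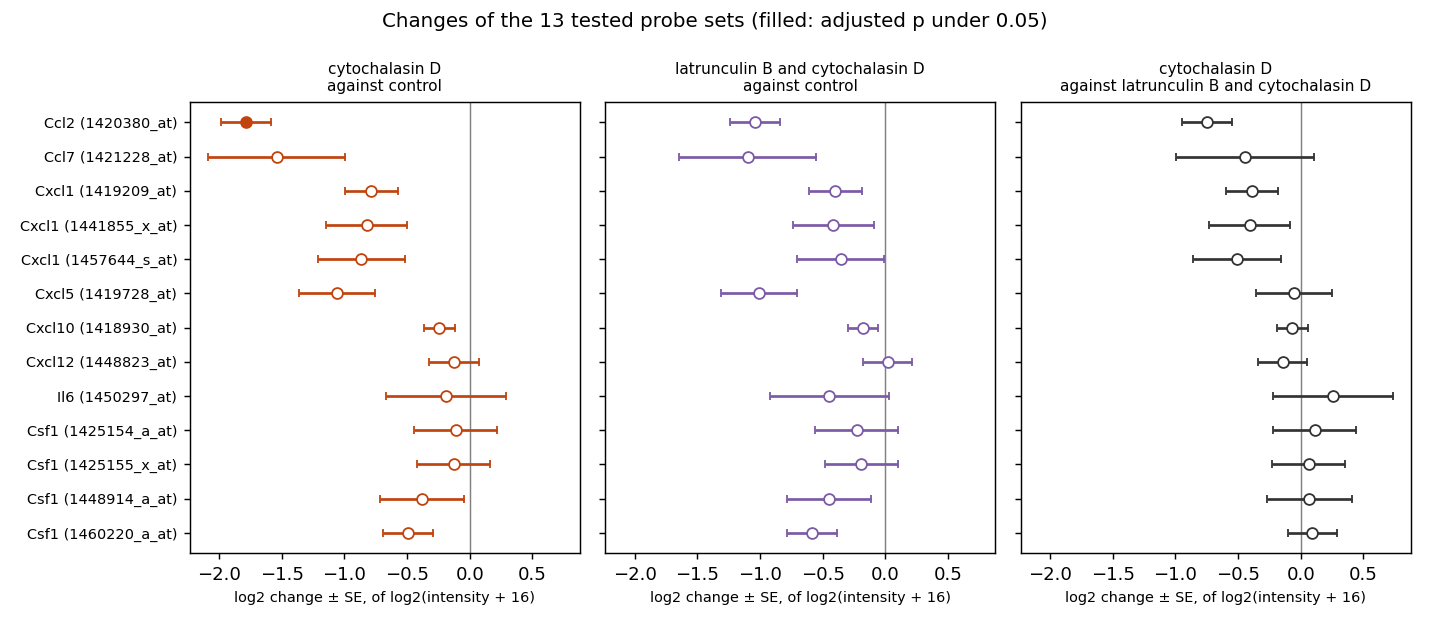
Log2 change with its standard error for the 13 tested probe sets in the 3 comparisons, on the scale of log2(intensity + 16). Filled points passed at an adjusted p under 0.05. Ccl2 with cytochalasin D against control, at −1.79, is the 1 filled point.

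By Pearson correlation of log2 values over the 9 arrays, the genes most like Ccl2 were Dusp7, a phosphatase of ERK (r = 0.99), AI467606 (0.98), the stress gene Gadd45b (0.98), Fancf (0.97) and Magef1 (0.97). Gadd45b averaged 838 with cytochalasin D, 1075 in the double-drug group and 1974 in controls. Among members, Cxcl1 had the highest r with Ccl2 (0.87), Ccl7 had 0.68, and Il6 0.28. These coefficients include the differences between groups and those between culture numbers.

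The genes around the members were taken from lists. Of 26 other chemokines with a probe set only Ccl9 and Ccl25 were expressed on all 9 arrays, and the other 24 had no value above 16.2. Ccl9 averaged 454 ± 32.7 with cytochalasin D and 570 ± 19.5 in controls (SD, n = 3), a change of −0.32 (SE 0.07, adjusted p = 0.1), and Ccl25 had 0.26 (adjusted p = 0.872). Ccl28 and Cx3cl1 had changes of −0.16 and 0.12 and were not expressed. Among 13 tested, 0 passed in limma, where 1.93% of genes were called by their brightest probe set, and Ccl9 was the 1 with an unadjusted p under 0.05. The share of 1.93% is also the one to set beside the cytochalasin D counts of every further list.

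Of 22 other cytokines 6 were expressed on all arrays: Il11, Il18, Kitl, Ctf1, Clcf1 and Mif. None of the 11 tested passed in limma with cytochalasin D. The 4 with the smallest p were Il15 (−0.38, unadjusted p = 0.0287, the 1 under 0.05), Kitl, the ligand of the receptor Kit (−0.30), Clcf1 (−0.20) and Il18 (−0.22). The median over the list was −0.01.

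The 13 NF-kappaB subunits, kinases and inhibitors with a probe set were all expressed, and 0 of 13 passed in limma with cytochalasin D. The median change was −0.01. Rel, the c-Rel subunit, had the smallest p, at 56.9 ± 6.67 with cytochalasin D and 32.2 ± 5.63 in controls (SD, n = 3), a change of 0.60 (SE 0.11, adjusted p = 0.0677). Nfkbie (−0.33), Ikbkg (−0.16) and Nfkbib (0.16) followed, of which the first 2 had unadjusted p under 0.05.

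Of 11 regulators of cytokine mRNA decay 1 rose with cytochalasin D, 0 fell and 10 were not called, where 1.93% of genes were called. Zfp36, tristetraprolin, had 1826, 1913 and 2239 in cytochalasin D cultures 1, 3 and 7, 1272, 1208 and 1503 in double-drug cultures, and 285, 288 and 389 in controls. The 3 groups did not overlap, in the order opposite to that of Ccl2. Zfp36 rose by 2.59 with cytochalasin D (SE 0.15, adjusted p = 0.00099). With both drugs it rose by 2.01 (adjusted p = 0.0172), where 0.142% of genes were called. That call was lost on the 6 arrays compared (adjusted p = 0.147) and without cytochalasin D culture 1 or 3, double-drug culture 1, 3 or 7 or control culture 3 (adjusted p between 0.0577 and 0.121). Cytochalasin D exceeded the double-drug group by 0.58 (adjusted p = 0.472, and 0.035 with the replicate block). Whether Zfp36 bears on the chemokine transcripts was not tested.

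The other decay regulators with an unadjusted p under 0.05 for cytochalasin D are given here after their values were seen, and none was called in the main fit. Zfp36l1 and Zfp36l2, relatives of tristetraprolin that also bind AU-rich elements, had log2 changes of −0.52 (SE 0.17, adjusted p = 0.322) and −0.63 (SE 0.17, adjusted p = 0.186), opposite in sign to Zfp36. Zc3h12a, the endonuclease regnase-1, had 0.86 with cytochalasin D (SE 0.27, adjusted p = 0.297). With both drugs the change of Zc3h12a was 0.82 (SE 0.27, adjusted p = 0.7, and 0.0345 with the replicate block).

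Of 13 genes of gp130, STAT and SOCS signalling, through which Il6 and Lif act, Jak2 rose with cytochalasin D and 12 were not called. Among all genes tested 1.93% were called. Jak2, a receptor-bound kinase, averaged 671 ± 31.2 with cytochalasin D and 510 ± 33.5 in controls (SD, n = 3), a change of 0.39 (adjusted p = 0.0203) in 1 of its 2 probe sets. The call was lost on the 6 arrays compared (adjusted p = 0.121) and without control culture 1 or 7, cytochalasin D culture 3 or 7 or double-drug culture 1 (adjusted p between 0.052 and 0.0723). The other 3 genes with an unadjusted p under 0.05, given after their values were seen, were not called in the main fit. Stat5b had a log2 change of 0.35 (SE 0.08, adjusted p = 0.144), Stat3, the main transcription factor downstream of gp130, had 0.76 (SE 0.20, adjusted p = 0.186), and Socs3, its feedback inhibitor, had −1.12 (SE 0.35, adjusted p = 0.29).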

How the data were processed

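RNA of 9 NIH 3T3 cultures was measured on Affymetrix arrays from biotinylated cRNA, per the labels' protocols. The authors deposited 1 intensity for each probe set and array, already normalized and not log-transformed. MAS5 and GCRMA appear in the submitters' processing notes, but which made these values is not given in the sources used here. Probe sets were named from the platform annotation, with symbols updated through gene identifiers.

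Intensities were changed to log2(intensity + 16). Probe sets above the 40th percentile of their array on at least 3 arrays were tested, and 64 control probe sets were left out. limma 3.58.1 in R 4.3.3 fitted 1 coefficient per group to all 9 arrays, with two-sided tests and Benjamini-Hochberg adjustment over the 27010 probe sets of each of 3 contrasts, called at 0.05. Alternatives were other pseudocounts, no filter, quantile normalization, a replicate block, the 6 arrays compared, an intensity trend and each array left out. The number of arrays limits the precision, and p-values measure the spread between cultures of 1 line.

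Same-numbered arrays of the double-drug group correlated in their deviations from group means with those of both other groups (r between 0.41 and 0.83). In these comparisons the numbers were therefore taken to pair cultures. The pairing is least clear for culture 3, at 0.41, since control 3 correlated at 0.38 with double-drug culture 7. Blocked values are given where they change a call, for cytochalasin D against control mainly under the dependence on processing. Members and lists were chosen with earlier results of these data known. Named list genes are those called and otherwise up to 4 with the smallest p, by brightest probe set, and likeness is given for 5 genes.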

Additional observations from a re-analysis of the deposited data

How the results depend on the processing

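Ccl2 with cytochalasin D against control kept its direction under all 16 alternatives (log2 change −1.93 to −1.65, adjusted p 0.00339 to 0.0534) and lost its call in 1, the fit on the 6 arrays compared, where 0 member probe sets were called. With the replicate number as a block, 4 were called, Ccl2 and the 3 probe sets of Cxcl1 (adjusted p = 0.0242, 0.0367 and 0.0101), beside 3.87% of all tested. By the rule used the numbers were not taken to pair the cultures of this comparison. Same-numbered arrays of culture 3 correlated at 0.08, beside 0.71 and 0.65 for cultures 1 and 7. Double-drug culture 3 correlated at 0.41 with both control 3 and cytochalasin D 3, so pairing is not excluded here. Numbers that pair the double-drug cultures with both other groups would also pair those groups with each other. The results of both fits are therefore given. With this block the list genes Ackr3 (adjusted p = 0.00289), Rel (0.0446), Zfp36l1 (0.00796), Zfp36l2 (0.0229), Zc3h12a (0.00862), Socs3 (0.0127), Irf1 (0.0361) and Ifit2 (0.0446) and the marker Thy1 (0.0363) were also called. In the other comparisons 0 members were called under every alternative run, the block included, and among list genes the block changed the calls of Ackr3, Zc3h12a and Zfp36 and no other.

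Over all probe sets, the count for cytochalasin D against control was 423, 1044 with the replicate block, 159 on the 6 arrays compared, and 227 to 478 with 1 array left out. For the double-drug group against control it was 30, and 14 with a pseudocount of 64, 8 with no filter, 15 after quantile normalization, 123 with the replicate block, 1 on the 6 arrays, 48 with an intensity trend and 0 to 42 with 1 array left out. It was 0 in limma without double-drug culture 3 or 7, where 1242 and 1206 had an unadjusted p under 0.05. For cytochalasin D against the double-drug group it was 70, and 16 with no filter, 9 on the 6 arrays and 3 to 59 with 1 array left out. Fewer residual degrees of freedom come with the 6-array fits; other causes were not tested. Of the 18 probe sets 13 were expressed in each group. Above the 75th percentile it was 8 with cytochalasin D and 7 in the double-drug group. The same 13 were counted above the 40th percentile, and above every probe set of the leukocyte markers Ptprc, Adgre1, Cd3e and Cd79a. Both of these limits lie below the 60th percentile, so the 13 had to pass, and the counts show only that no other member probe set was added. The expressed leukocyte markers Csf1r, Cd14 and Lyz2 were left out of the marker limit, and a limit with them was not tested.

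Some log2 changes, none of them called, changed sign when 1 array was left out. Against control these were, for cytochalasin D, Cxcl12 (−0.29 to 0.12), Il6 (−0.47 to 0.17) and 2 probe sets of Csf1 (−0.36 to 0.14 and −0.40 to 0.062), and for the double-drug group Cxcl12 (−0.037 to 0.065) and 1 probe set of Csf1 (−0.47 to 0.010). For cytochalasin D against the double-drug group they were Ccl7 (−0.72 to 0.088), Cxcl5 (−0.37 to 0.16), Cxcl12 (−0.31 to 0.10), Il6 (−0.070 to 0.66) and the 4 probe sets of Csf1 (−0.12 to 0.36, −0.11 to 0.25, −0.20 to 0.30 and −0.10 to 0.26). Intensities near the limit of 16.1 to 17.5, as for Cxcl10, limit what can be seen of a change.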

Other observations

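Of 17 chemokine and cytokine receptors with a probe set, 5 were expressed on all arrays: Ackr3, the scavenging receptor of Cxcl12, Il6st (gp130), Lifr, Osmr and Csf1r. None of the 12 tested passed with cytochalasin D in limma, and the 2 with an unadjusted p under 0.05 were Ackr3 and Osmr. Ackr3 averaged 1487 ± 258 with cytochalasin D, 1765 ± 243 in the double-drug group and 2422 ± 317 in controls (SD, n = 3). Its log2 change was −0.70 with cytochalasin D (SE 0.16, adjusted p = 0.132) and −0.45 with both drugs (SE 0.16, adjusted p = 0.795, and 0.0249 with the replicate block), and the block also moves the cytochalasin D change past the threshold. Osmr, a partner of gp130 in the oncostatin M receptor, had −0.27 with cytochalasin D, Lifr −0.23 and Ackr4 −0.32. The receptor for Csf1 had an intensity of at most 44.8 on all 9 arrays and a log2 change of 0.01 with cytochalasin D (SE 0.03). The same value, 41.969, stood for cytochalasin D culture 7 and control cultures 1 and 7. Whether the intensities of Csf1r were signal or background was not tested.

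Of 13 tested interferon response genes 0 passed with cytochalasin D in limma, and Irf1 and Irf3 had an unadjusted p under 0.05. Irf1, a transcription factor of interferon responses, averaged 635 ± 88.4 with cytochalasin D, 750 ± 41.7 in the double-drug group and 1086 ± 280 in controls (SD, n = 3), with a log2 change of −0.74 for cytochalasin D (adjusted p = 0.157). Irf3 had 0.31, Ifit2 −0.21 and Ifit3 −0.31, and the median over the list was −0.03.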
